A study of Mus musculus with 2 samples.

Results

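The genes described here are 10 carriers and carrier subunits with which the small intestine takes up sugars, peptides and amino acids: Slc5a1, Slc2a2, Slc2a5, Slc15a1, Slc6a19, Slc7a7, Slc7a8, Slc7a9, Slc3a1 and Slc3a2. They were chosen by name, and all 10 were found among the 31053 genes of the matrix. The data are single-cell RNA counts from mouse small intestinal organoids, which are cultured epithelial structures that hold stem cells and their absorptive and secretory offspring. The labels list 1 control library and 1 melatonin-treated library, each pooled from 3 organoid lines and taken on culture day 3. Strain, sex, age and melatonin dose are not given in the sources used here. The deposited files of both samples were compared, and 3 of 3 were identical, so both hold a single matrix of 21806 barcodes. The barcodes end in the suffix 1 (set 1, 12364 barcodes) or 2 (set 2, 9442 barcodes), and 29 barcode sequences occur with both. Nothing in the labels or headers links a suffix to a treatment, so control and melatonin were not compared, and the order of the sets is arbitrary. A set is a single pool of cells and cells are not replicates, so no test was run, and every interval below is a 95% interval for counting error only.

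In the gut, sugars and amino acids cross the enterocyte in steps. Slc5a1 (SGLT1) brings glucose and galactose in with sodium at the brush border, Slc2a5 (GLUT5) brings in fructose, and Slc2a2 (GLUT2) lets sugars out on the blood side. Slc15a1 (PEPT1) takes up short peptides with protons, and Slc6a19 (B0AT1) takes up neutral amino acids with sodium. Slc7a9 pairs with Slc3a1 to carry cystine and dibasic amino acids at the brush border, while Slc7a7 and Slc7a8 pair with Slc3a2 on the blood side. Enteroendocrine cells, which release gut hormones, use some of the same carriers to sense nutrients.

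A barcode was kept as a cell if it had 1000 or more UMIs (unique molecular identifiers, each counted as 1 RNA molecule) from 500 or more genes, and if no more than 20% of them were mitochondrial. These were 2300 cells in set 1 and 1766 in set 2, with medians of 29872 and 28759 UMIs. Classes were cut from the share of a cell's UMIs in marker genes, none of which is a transporter, so a class is a range of marker share and not a discrete type. Enterocyte-like cells made up 5.35% of set 1 (123 cells) and 10.1% of set 2 (179 cells), and 23 and 17 of them lay within 1.5 times of the cut. Enteroendocrine-like cells made up 12.5% (287) and 15.2% (269), and cycling-like cells 61.3% (1410) and 39.8% (702). Goblet- or Paneth-like cells (34 and 39) and revival-like cells, cut on wound-repair markers such as Anxa1 and Clu (19 and 30), were few. The genes furthest above all other kept cells in the revival-like class were Crct1 and Ly6d, before the marker Anxa1. Clu was not among the first 10. A rest of 386 and 500 cells stayed unnamed, and 41 and 47 cells that passed more than 1 cut were set aside as possible doublets. Enterocyte-like cells carried all 9 enterocyte markers, at 394 and 414 UMIs per 10000.

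Levels are UMIs summed over the cells of a class, scaled to the total UMIs of that class as CPM (counts per 1000000). They are compared between classes and sets for 1 gene at a time. A gene is called different where the 95% intervals do not overlap and the levels differ at least 1.5-fold. All 10 transporters were called higher in enterocyte-like cells than in the other cells that passed at most 1 cut, in both sets. Of all genes tested, 12.1% were called higher in set 1 and 12.9% in set 2. The median log2 ratio of the transporters, on CPM plus 1, was 2.67 in set 1 and 2.88 in set 2, against -0.28 and -0.32 for all genes tested. Enterocyte-like cells also had more mitochondrial UMIs, with medians of 13.4% and 14.0% against 9.26% and 9.07% in cycling-like cells, and the part of this in the result was not tested.

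**Figure D1:**
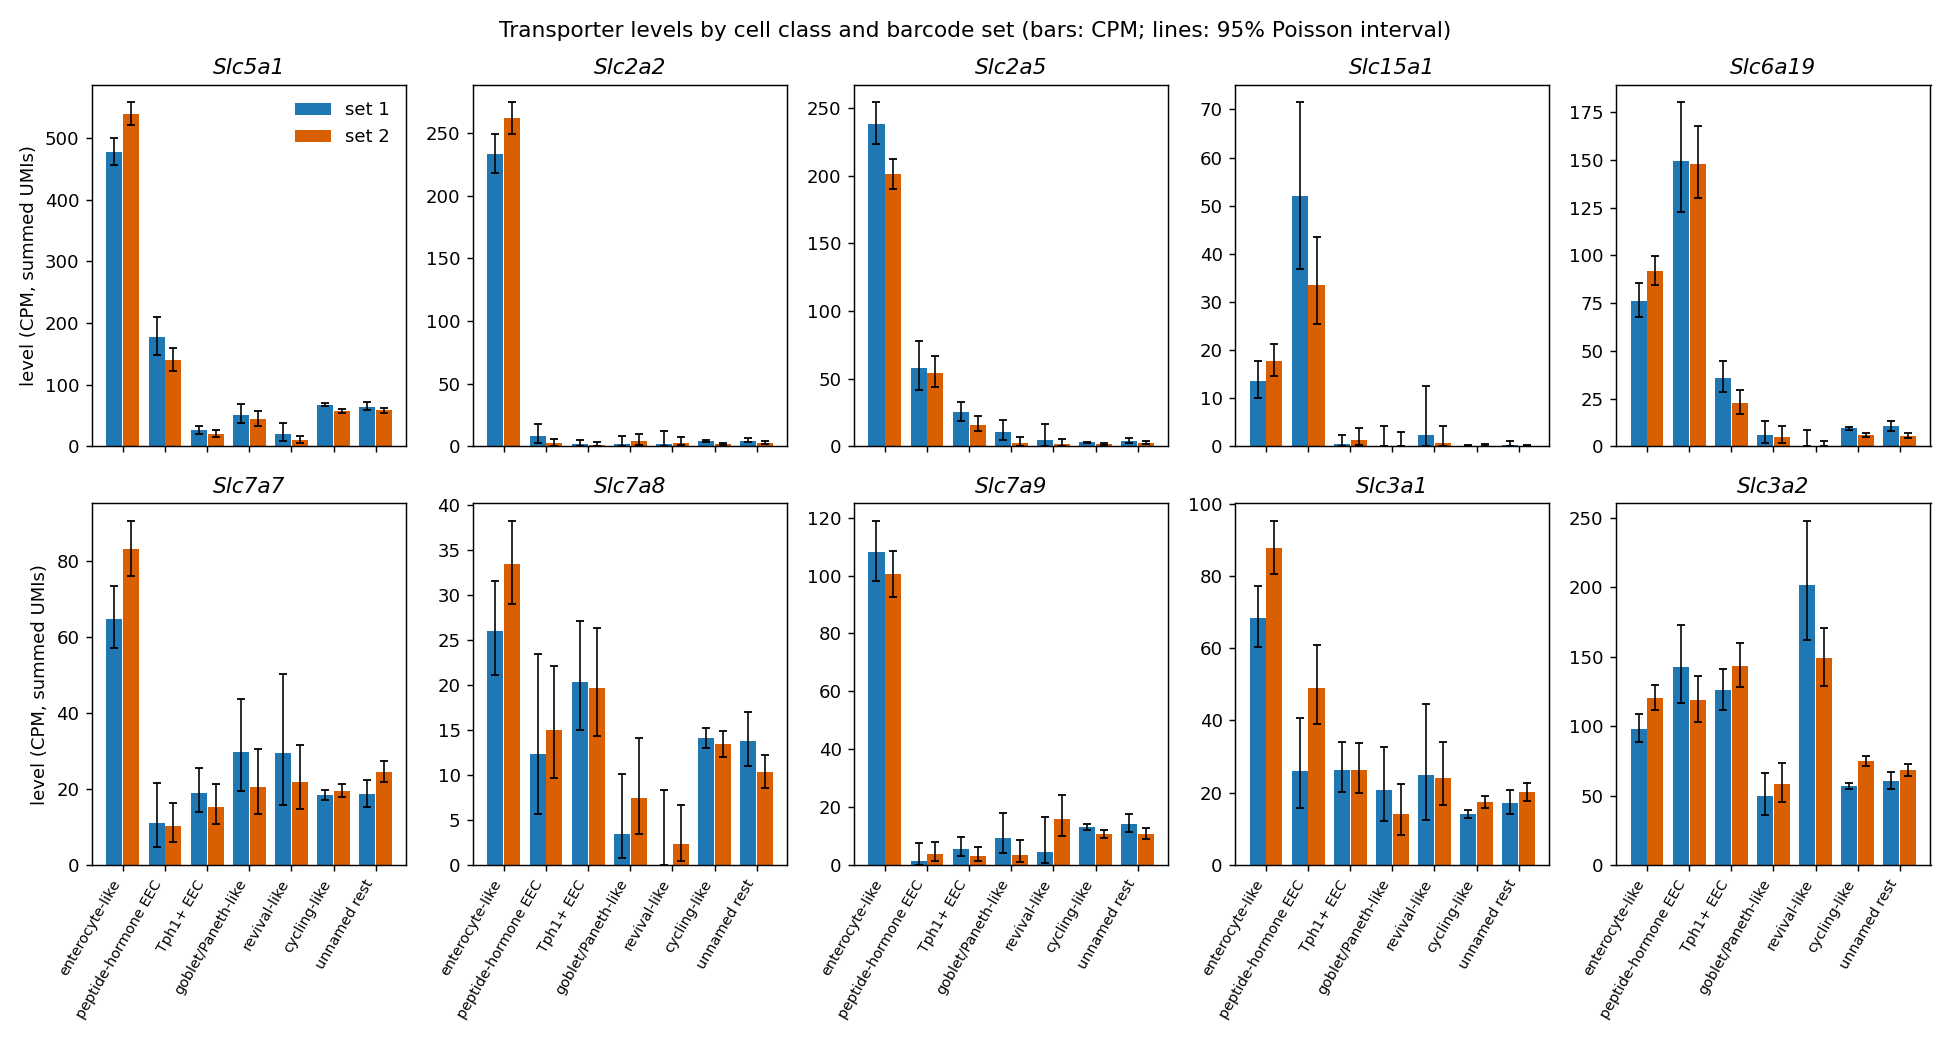
Level of each transporter in CPM (y axis, own scale per panel, from 0) in 5 classes and 2 kinds of enteroendocrine cells (EEC), with 1 bar per barcode set and lines for the 95% Poisson interval. In 7 panels the enterocyte-like bars stand highest in both sets; Slc15a1 and Slc6a19 stand highest in peptide-hormone cells, and Slc3a2 in revival-like cells.

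The sugar carriers differed in how far they were restricted to enterocyte-like cells. Slc5a1 stood at 478 CPM (456 to 500, from 1842 UMIs) in enterocyte-like cells of set 1 and at 539 (521 to 558, from 3347 UMIs) in those of set 2. In the other cells it stood at 65.8 and 56.9 CPM, so the folds were 7.26 and 9.48. Many of the glucose carrier's UMIs were counted outside the gate: cycling-like cells held 54.1% of its UMIs in set 1 and 23.3% in set 2, against 32.5% and 56.3% in enterocyte-like cells. Cycling-like cells stood at 67.6 and 57.4 CPM of Slc5a1, and barcodes under the limits of 500 genes or 1000 UMIs, which can hold mostly free RNA, at 113 and 132 CPM of non-mitochondrial UMIs. Enteroendocrine-like cells positive for Tph1, described below, stood lower than both, at 26.0 (19.8 to 33.4) and 20.5 (15.1 to 27.3) CPM, and the part of free RNA in the level of cycling-like cells was not tested. Slc2a2 was far more restricted. Its level was 234 CPM (219 to 249) and 262 (249 to 275) in enterocyte-like cells against 4.23 and 2.36 in the others, folds of 55.2 and 111. Enterocyte-like cells held 78.1% and 92.5% of its UMIs. Slc2a5 stood at 238 CPM (223 to 254) and 201 (190.0 to 212) against 5.28 and 5.02, folds of 45.1 and 40.0. In set 1, 3 cells held 24.7% of the Slc2a5 UMIs of the enterocyte-like class, and in set 2 3 cells held 11.9%.

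The peptide carrier Slc15a1 was the least counted of the sugar and peptide carriers, with 113 UMIs in all kept cells of set 1 and 188 in set 2. In enterocyte-like cells it stood at 13.5 CPM (10.1 to 17.7) and 17.7 (14.6 to 21.4), folds of 15.7 and 12.1 over the other cells. In cycling-like cells it was near absent, at 0.132 CPM (6 UMIs) and 0.166 (4 UMIs). Goblet- or Paneth-like cells held 0 UMIs of it, and a count of 0, taken as up to 3 UMIs, allows 3.44 CPM in set 1 and 2.47 in set 2. Slc6a19, the neutral amino acid carrier, stood at 76.2 CPM (67.8 to 85.5) and 92.0 (84.6 to 99.9), folds of 5.99 and 7.66. Revival-like cells had 0 UMIs of Slc6a19, a limit of 6.80 and 2.27 CPM.

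The amino acid carrier subunits are given as the brush border pair and then the blood-side ones. Slc7a9 stood at 108 CPM (98.0 to 119) and 100.4 (92.7 to 109), folds of 8.71 and 10.2. Its partner Slc3a1 stood at 68.5 CPM (60.4 to 77.2) and 87.7 (80.5 to 95.4), folds of 4.50 and 4.40. On the blood side, Slc7a7 stood at 64.8 CPM (57.0 to 73.4) and 83.2 (76.1 to 90.7), folds of 3.51 and 4.06, and the log2 intervals of these folds overlapped those of Slc3a1 in both sets. Slc7a8 stood at 25.9 CPM (21.1 to 31.5) and 33.4 (29.0 to 38.2), folds of 1.86 and 2.69. Slc3a2, which also serves carriers of dividing cells, had the smallest differences, log2 ratios of 0.64 and 0.58, from 98.3 CPM (88.6 to 109) and 120.4 (112 to 129) against 62.8 and 80.1. Its call was lost in both sets when the enterocyte cut was lowered to 0.5 times its value, where the log2 ratio was 0.43 and 0.45, and when the 3 cells richest in the gene were left out, where it was 0.50 and 0.54.

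The members separated by how early they rose along the enterocyte marker share. Cells outside the secretory and revival cuts were placed in 6 bins, from under 10 to 300 and over marker UMIs per 10000. Slc2a5 and Slc15a1 rose late: in the bin from 100 to 300, Slc2a5 was at 7.62% of its top-bin level in set 1 and 19.7% in set 2, while Slc15a1 had 1 UMI there in set 1 (0.662 CPM, 0.0168 to 3.69, against 21.7 in the top bin) and 8 UMIs in set 2, 17.9% of its top-bin level. Lactase (Lct), a brush border enzyme of mature enterocytes, was at 1.22% and 10.97% there. Slc2a2 came before them, at 25.7% and 50.1% in that bin and at most 6.18% in every lower bin of either set. Slc5a1, Slc6a19 and Slc7a9 rose from the lowest bins on, and stood at 33.0%, 32.6% and 34.6% of the top level in set 1 and 46.5%, 60.1% and 59.7% in set 2 in the same bin. Slc7a8 and Slc3a2 varied least, since even the lowest bin held 35.7% and 46.2% of the top level in set 1 and 26.1% and 58.3% in set 2. The bins of 100 to 300 held 54 and 57 cells, and the median proliferation marker share was 18.6 UMIs per 10000 in the lowest bin and 1.14 in the top bin of set 1, and 14.5 and 0.833 in those of set 2. Barcodes under the limits of 500 genes or 1000 UMIs stood at 18.7 and 31.2 CPM of non-mitochondrial UMIs for Slc6a19 and at 16.4 and 23.9 for Slc7a9. In the lowest bin Slc6a19 stood at 2.58 and 2.61 CPM and Slc7a9 at 8.45 and 8.23. The part of proliferation and of free RNA in the order of the genes was not tested.

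**Figure D2:**
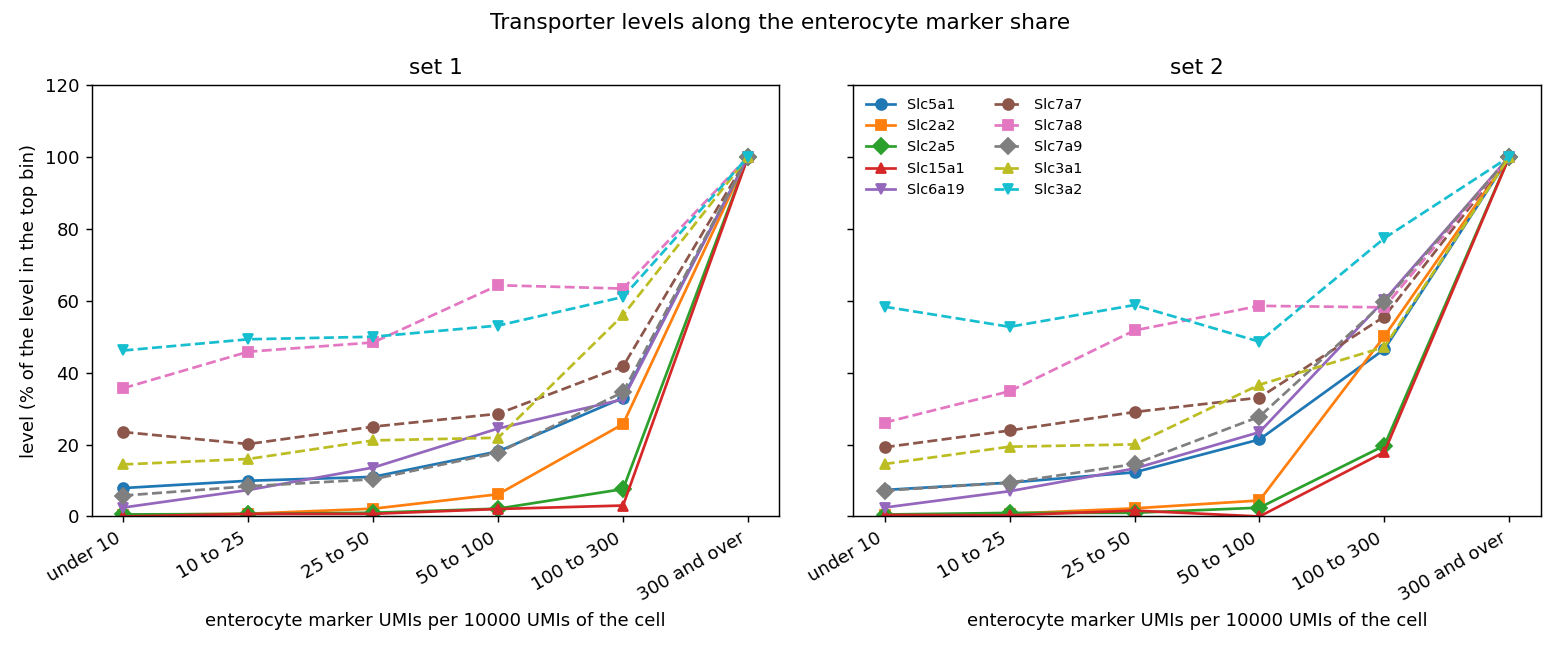
Level of each transporter as a percent of its level in the top bin (y axis, linear) against bins of enterocyte marker UMIs per 10000 UMIs (x axis), with 1 panel per barcode set. Slc15a1 and Slc2a5 stay near 0 until the last 2 bins, while Slc3a2 and Slc7a8 start above 25% of the top level in both sets.

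Enteroendocrine-like cells were compared with cycling-like cells. Of the 10 transporters, 5 were called higher and 1 lower in each set, where 41.9% and 38.9% of all genes tested were called higher and 14.6% and 17.7% lower, so the share of higher calls was near the background. Slc2a5 was 11.1-fold and 17.0-fold higher, Slc15a1 74.9-fold and 83.5-fold, Slc6a19 5.96-fold and 11.5-fold, while Slc7a9 was the lower one. Slc5a1 was not called and lay on opposite sides, at 55.9 against 67.6 CPM in set 1 and 68.0 against 57.4 in set 2.

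The enteroendocrine-like cells did not share 1 pattern. They were divided after their values had been seen. Peptide-hormone cells (46 in set 1 and 95 in set 2) had at least 50 UMIs per 10000 in 8 peptide hormone genes and under 5 of Tph1. Tph1-positive cells (158 and 153) had at least 5 of Tph1, which makes the precursor of serotonin, and under 50 in the hormone genes. The rest were 34 and 11 cells positive for Neurog3, an early endocrine factor, and 49 and 10 other cells, which are not described further. Slc2a5 stood at 46.3 CPM (27.9 to 72.3) and 66.2 (26.6 to 136) in the Neurog3-positive cells, with intervals that overlapped those of peptide-hormone cells. In the peptide-hormone cells the 8 hormone genes took 18.4% and 19.0% of all UMIs. Slc15a1 stood at 52.1 CPM (36.9 to 71.5, 38 UMIs in 17 cells) in the peptide-hormone cells of set 1 and at 33.6 (25.3 to 43.6, 56 UMIs in 31 cells) in those of set 2. These levels were 3.86-fold and 1.89-fold higher than in enterocyte-like cells, and 3 cells held 31.6% and 30.4% of the UMIs. The enterocyte-like class includes cells with lower marker shares, and in the top bin of enterocyte marker share alone Slc15a1 stood at 21.7 CPM (16.2 to 28.6) and 23.6 (19.3 to 28.7), with intervals apart from those of peptide-hormone cells in set 1 and overlapping in set 2. Slc6a19 stood at 149 CPM (123 to 180) and 148 (130.1 to 168), which was 1.96-fold and 1.61-fold higher than in enterocyte-like cells. In the top bin alone Slc6a19 stood at 103.6 and 104.7 CPM, so against these cells the difference was under 1.5-fold in both sets and would not be called. The peptide and neutral amino acid carriers were the only 2 of the 10 called higher in this comparison, in each set. Of all genes tested, 25.3% were called higher in set 1 and 31.5% in set 2. In the other direction 6 transporters in set 1 and 7 in set 2 were called lower, where 11.6% and 14% of all genes were. Slc7a9 had 1 UMI in the peptide-hormone cells of set 1, a log2 ratio with an interval of -11.61 to -3.82, and 6 UMIs in those of set 2.

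Some of the carriers of peptide-hormone cells were lower in Tph1-positive cells. Slc5a1 stood at 177 CPM (148 to 210) and 139.6 (122 to 159) in peptide-hormone cells against 26.0 (19.8 to 33.4) and 20.5 (15.1 to 27.3) in Tph1-positive cells, a 6.81-fold difference in each set. Slc6a19 stood at 35.9 and 22.7 CPM in Tph1-positive cells, 4.16-fold and 6.52-fold lower. Slc2a5 stood at 57.6 and 54.5 CPM against 25.1 and 16.1, folds of 2.29 and 3.38. Slc15a1 had 1 UMI in 158 Tph1-positive cells and 3 UMIs in 153, so its log2 ratio had intervals of 4.35 to 12.25 and 3.06 to 7.00. With these, 4 of 10 tested transporters were called higher in peptide-hormone cells of set 1 and 5 of 9 in set 2, where Slc3a1 joined them at 1.88-fold. The background was 3.62% in set 1 and 4.73% in set 2, and 0 transporters were called lower. The shared subunit Slc3a2 was not called, at 143 against 126 CPM in set 1 and 119 against 144 in set 2, and Slc7a7 and Slc7a8 lay higher in Tph1-positive cells of both sets without being called. The subgroups had similar depth, with medians of 16746.5 and 18235 UMIs in peptide-hormone cells and 14261.5 and 14017 in Tph1-positive cells. After thinning to 2000 UMIs per cell, 11.2% (3.58 to 24.8) and 6.12% (2.19 to 13.1) of peptide-hormone cells were expected to have an Slc15a1 UMI, against 0.072% and 0.213% of Tph1-positive cells. Without thinning the shares were 37.0% and 32.6% against 0.633% and 1.31%.

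Enterocyte RNA was measured in the same cells. All enterocyte markers but Alpi in set 1 and all 9 in set 2 had a UMI in peptide-hormone cells, with a summed level of 32.3 and 14.8 UMIs per 10000, against 7.19 and 4.55 in Tph1-positive cells and 394 and 414 in enterocyte-like cells. As a percent of the enterocyte-like level, peptide-hormone cells held 0.963% and 0.735% of Apoa1 and 0.661% and 0.314% of Fabp1. They held 386% and 189% of Slc15a1, 196% and 161% of Slc6a19, 37.0% and 25.9% of Slc5a1 and 24.2% and 27.1% of Slc2a5, but 3.52% and 0.916% of Slc2a2. In the peptide-hormone cells with under 25 enterocyte marker UMIs per 10000 (23 and 86 cells), a choice made after seeing the data, Slc15a1 stood at 83.3 CPM (55.8 to 120) and 36.5 (27.4 to 47.7), and Slc6a19 at 112 (79.7 to 153) and 123 (106 to 142). In the other peptide-hormone cells (23 and 9), Slc15a1 stood at 23.6 CPM (10.8 to 44.8) and 10.5 (1.27 to 37.9, 2 UMIs), and Slc6a19 at 184 (143 to 232) and 341 (263 to 435). Slc5a1 stood at 121 CPM (86.9 to 163) and 123 (106 to 142) in the cells with few enterocyte markers and at 228 (183 to 281) and 268 (199 to 352) in the others. Slc5a1 was thus higher in the cells with more enterocyte markers, with intervals apart in both sets. Slc6a19 lay the same way, with intervals apart in set 2. Against enterocyte-like cells, Slc15a1 was still called higher in the cells with few enterocyte markers, at 6.18-fold and 2.06-fold. The call of Slc6a19 was lost there in both sets, at 1.47-fold and 1.34-fold. In the cells with more enterocyte markers it was the reverse: Slc15a1 was not called, at 1.75-fold and 0.592-fold, and Slc6a19 was called higher, at 2.41-fold and 3.70-fold. The part of enterocyte RNA in these levels was not tested.

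**Figure D3:**
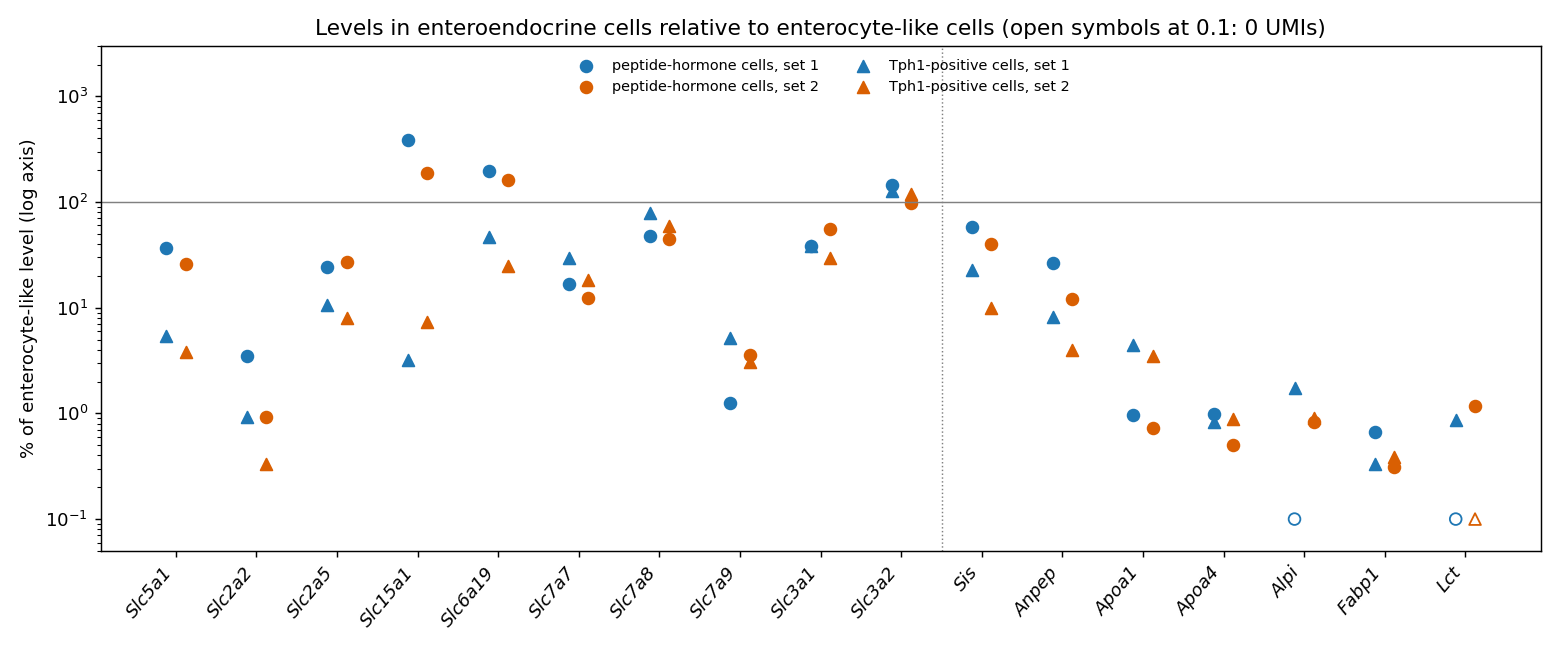
Level in peptide-hormone cells (circles) and Tph1-positive cells (triangles) as a percent of the level in enterocyte-like cells (y axis, log scale) for the 10 transporters and 7 enterocyte genes, by barcode set. Slc15a1 and Slc6a19 lie above the line at 100% in peptide-hormone cells of both sets, whereas Apoa1, Apoa4, Alpi, Fabp1 and Lct lie under 2% there and Sis and Anpep between 12.1% and 58.4%; open symbols mark 0 UMIs.

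The peptide-hormone cells were also read by the hormone that led them. Cck, a hormone released in response to fat and protein, led 35 cells in set 1 and 71 in set 2, and Gip, a hormone released in response to sugar and fat, led 11 and 16. Slc15a1 stood at 67.3 CPM (47.6 to 92.4) and 33.0 (23.9 to 44.4) in Cck-led cells. In Gip-led cells of set 1 it was not counted (0 UMIs, a limit of 18.2 CPM), and those of set 2 held 4 UMIs (17.0 CPM, 4.63 to 43.5). Slc15a1 intervals were thus apart in set 1 and overlapped in set 2. Slc5a1 lay the other way, at 261 CPM (189 to 351) and 284 (220.4 to 361) in Gip-led cells against 152 (122 to 188) and 113 (95.2 to 132) in Cck-led cells, with intervals apart in both sets. Slc6a19 stood at 218 CPM (153 to 302) and 195 (143 to 260.4) in Gip-led cells and at 129 (101 to 163) and 148 (128 to 170.3) in Cck-led cells, with intervals that overlapped in both sets. Those of Slc2a5 and Slc3a2 overlapped in both sets too.

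A partner protein of Slc6a19 also differed between these cells. Tmem27 (collectrin), the partner of Slc6a19 in the kidney, had 0 and 1 UMI in enterocyte-like cells. In peptide-hormone cells Tmem27 stood at 13.7 CPM (6.57 to 25.2, 10 UMIs in 6 cells) in set 1 and at 39.5 (30.6 to 50.3, 66 UMIs in 21 cells) in set 2. It had 0 UMIs in Tph1-positive cells of either set, a limit of 1.30 and 1.31 CPM, and 0 in Gip-led cells, where a count of 0 allows 18.2 and 12.7 CPM against 17.7 and 49.1 in Cck-led cells. Of the cells with a Tmem27 UMI, 5 of 6 and 13 of 21 also had one of Slc6a19, which was counted in 31 of 46 and 59 of 95 peptide-hormone cells.

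The promoters of 4 transporters are shown because their genes stood at different levels in peptide-hormone and enterocyte-like cells. Slc15a1 was higher and Slc5a1 lower in the former, and of the brush border pair Slc3a1 kept 38.1% and 56.0% of its enterocyte-like level and Slc7a9 1.27% and 3.58%. Sequences are from RefSeq on build GRCm38.p6, from 250 bases before to 50 after the annotated start, read 5′ to 3′ on the gene's strand, and all 10 genes were found in that table. Capitals mark matches, on either strand, to letters known for factors of the absorptive or endocrine lineage. The HNF1 half-site was searched as GTTAAT. For HNF4 the core searched was CAAAGT. The core taken for factors of the GATA type was AGATAA. The letters taken for CDX were CNATAAA. An E-box of the NEUROD type was searched as CAGATG. No pair of the motifs overlapped here.
Slc15a1, chr14:121505205-121505504, minus strand: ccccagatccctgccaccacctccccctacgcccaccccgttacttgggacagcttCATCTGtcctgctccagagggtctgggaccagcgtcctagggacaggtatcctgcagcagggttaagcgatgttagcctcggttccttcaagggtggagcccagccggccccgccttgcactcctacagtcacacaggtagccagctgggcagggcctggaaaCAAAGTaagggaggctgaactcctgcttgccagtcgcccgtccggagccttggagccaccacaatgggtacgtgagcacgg
Slc5a1, chr5:33103969-33104268, plus strand: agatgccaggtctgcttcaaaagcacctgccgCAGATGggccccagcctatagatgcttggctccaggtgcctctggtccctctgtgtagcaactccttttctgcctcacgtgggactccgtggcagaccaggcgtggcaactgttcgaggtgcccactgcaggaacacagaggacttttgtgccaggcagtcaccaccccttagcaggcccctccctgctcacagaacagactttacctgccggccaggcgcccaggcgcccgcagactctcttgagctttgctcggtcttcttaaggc
Slc7a9, chr7:35448842-35449141, plus strand, the first of 2 listed starts: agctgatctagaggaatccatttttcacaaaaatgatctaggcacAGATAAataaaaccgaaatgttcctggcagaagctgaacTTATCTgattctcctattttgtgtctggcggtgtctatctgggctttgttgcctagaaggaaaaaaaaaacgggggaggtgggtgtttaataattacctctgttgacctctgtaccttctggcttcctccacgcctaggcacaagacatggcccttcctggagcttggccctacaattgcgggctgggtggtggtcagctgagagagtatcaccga
Slc3a1, chr17:85028097-85028396, plus strand: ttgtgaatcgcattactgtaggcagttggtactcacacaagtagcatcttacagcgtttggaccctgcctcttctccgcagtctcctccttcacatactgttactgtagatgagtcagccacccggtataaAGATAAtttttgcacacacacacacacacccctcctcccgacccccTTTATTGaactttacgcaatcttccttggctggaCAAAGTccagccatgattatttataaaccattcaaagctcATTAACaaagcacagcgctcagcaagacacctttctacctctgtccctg
The Slc15a1 window held the HNF4 letters at -31 and the E-box letters at -194 from the start, and that of Slc5a1 the E-box letters at -218. The Slc7a9 window held the GATA letters at -205 and -166. That of Slc3a1 held HNF4 letters at -39, CDX letters at -73, GATA letters at -119 and HNF1 letters at 2. Of 27025 mouse promoters of this length, 14.3% hold the HNF4 letters, 17.2% the E-box letters, 11.4% the GATA letters, 11.3% the CDX letters and 7.20% the HNF1 letters. The first windows of Slc2a5, Slc6a19 and Slc3a2 held none of these letters. A match is a description of the letters and not of a bound site.

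The wider carrier families did not all follow the 10 members. Of 10 brush border enzymes that release sugars and amino acids, 10 were called higher in enterocyte-like cells in each set, from Lct (99.6 CPM against 0.316 in set 1) to Dpp4 (54.2 against 33.0). Of 7 other sugar carriers tested, 3 were called higher in each set and 0 lower. The widest difference was that of Slc5a11, at 12.7 against 0.158 CPM in set 1 and 13.4 against 0.0688 in set 2, while Slc2a1 (GLUT1), the glucose carrier of many dividing cells, stood at 23.3 against 19.8 and 24.7 against 23.3 and was not called. Of 15 other amino acid carriers tested, 4 were called higher in each set, while 7 in set 1 and 8 in set 2 were called lower, where 24.1% and 31.3% of all genes tested were. The widest higher ones were Slc6a20a, at 12.4 against 0.632 CPM in set 1, and Slc43a2, at 43.6 against 7.08. Among the lower ones, the glutamine carrier Slc1a5 stood at 15.3 against 44.7 CPM in set 1 and 16.9 against 55.2 in set 2. Slc7a5, another light chain that pairs with Slc3a2, stood at 9.59 against 17.7 and 7.09 against 21.0 CPM, so the light chains of Slc3a2 differed in direction. In a fructose handling list, which is not limited to breakdown enzymes, 4 of 6 genes tested were called higher in each set. Of all genes, 12.1% and 12.9% were called higher. Among the 4 was Tkfc, at 945 against 183 CPM in set 1 and 1304 against 141 in set 2. Txnip of this list was called lower in set 2, at 158 against 251 CPM, and was not called in set 1, at 219.9 against 324.

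Among 12 transcription factors of the absorptive lineage, 3 in set 1 and 4 in set 2 were called higher in enterocyte-like cells, and 2 and 1 lower, where 12.1% and 12.9% of all genes were called higher and 24.1% and 31.3% lower. Maf stood at 34.0 against 6.27 CPM in set 1 and 48.4 against 7.61 in set 2, and Hnf4g at 61.5 against 19.6 and 69.3 against 16.0. Cdx1 was called lower in both sets, at 59.9 against 92.0 and 49.0 against 87.8 CPM.

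The same lists were read in peptide-hormone cells against enterocyte-like cells. Of 14 other amino acid carriers tested, 5 were called higher in set 1 and 7 in set 2, with 1 and 2 lower, where 25.3% and 31.5% of all genes tested were called higher and 11.6% and 14% lower. Of 10 brush border enzymes, 1 was called higher and 8 lower in each set, and of 6 partner proteins and ion drivers 1 was higher and 5 lower in each set. The only higher one of these partners was Tmem27.

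Genes most like each member were sought over 12 pools of cells, the classes of both sets, among 7344 genes, by Pearson's r of log2 of CPM plus 1. The pools share libraries and depth, and the pools with the highest level weigh heavily in an r. Slc2a2 was closest to Cyp3a11 (r = 0.99), Slc15a1 to Lpgat1 (r = 0.99), Slc2a5 to Phyh (r = 0.98), Slc6a19 to Akr1c14 (r = 0.98) and Slc3a2 to Gpa33 (r = 0.98). Mdh1 was among the 3 genes closest to Slc7a9 (r = 0.97). Slc5a1 was closest to mt-Nd4 (r = 0.97). Slc3a1 was closest to the gate marker Apoa1 (r = 0.96), Slc7a8 to Amn (r = 0.95) and Slc7a7 to Exoc3l4 (r = 0.95).

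The sets were compared over all kept cells and then within classes. Over all kept cells 3 of 10 transporters were called higher in set 2 than in set 1, and 0 lower, where 4.25% of all genes tested were called higher and 2.93% lower. Slc2a2 stood at 18.7 CPM (17.6 to 19.8) in set 1 and 34.3 (32.7 to 36.0) in set 2, Slc15a1 at 1.83 and 3.68 (3.17 to 4.24), 2.01-fold higher, and Slc3a1 at 19.2 (18.1 to 20.3) and 29.4 (28.0 to 31.0). The median log2 ratio of the 10 was 0.40, against 0.03 for all genes tested. The share of enterocyte-like cells differed between the sets as given above, 5.35% against 10.1%. With each class given the same weight in both sets, a choice made after seeing the data, the median was 0.01. With at most 10% mitochondrial UMIs per cell it was -0.07, with 0 transporters called.

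Within enterocyte-like cells 0 of 10 transporters were called different between the sets, where 4.59% of all genes tested were, and the median log2 ratio was 0.28, against 0.0017 for all genes tested. The log2 intervals of 7 transporters lay wholly above 0 and that of Slc2a5 wholly below it, at changes under 1.5-fold. The widest was Slc15a1, at 13.5 CPM in set 1 and 17.7 in set 2, with a log2 interval of -0.09 to 0.90. Slc2a5 and Slc7a9 lay the other way, at 238 and 201 CPM and at 108 and 100.4 CPM. Within enteroendocrine-like cells 0 of 10 were called different, with 3.88% of all genes, and within peptide-hormone cells 0 of 9, with 1.75%. Within cycling-like cells 2 of 10 were called lower in set 2, with 2.75% of all genes: Slc2a2, at 4.27 CPM (3.69 to 4.92) in set 1 and 1.99 (1.47 to 2.64) in set 2, and Slc6a19, at 9.43 (8.55 to 10.4) and 6.13 (5.18 to 7.20). The summed enterocyte marker level of cycling-like cells moved with them, at 22.0 UMIs per 10000 in set 1 and 13.4 in set 2, and its part in the result was not tested. Among unnamed cells 1 of 9 was called lower, with 2.71% of all genes: Slc6a19, at 10.5 CPM (8.09 to 13.4) and 5.45 (4.24 to 6.90). The summed enterocyte marker level of unnamed cells was also lower in set 2, at 15.1 against 25.9 UMIs per 10000, and its part was not tested.

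**Figure D4:**
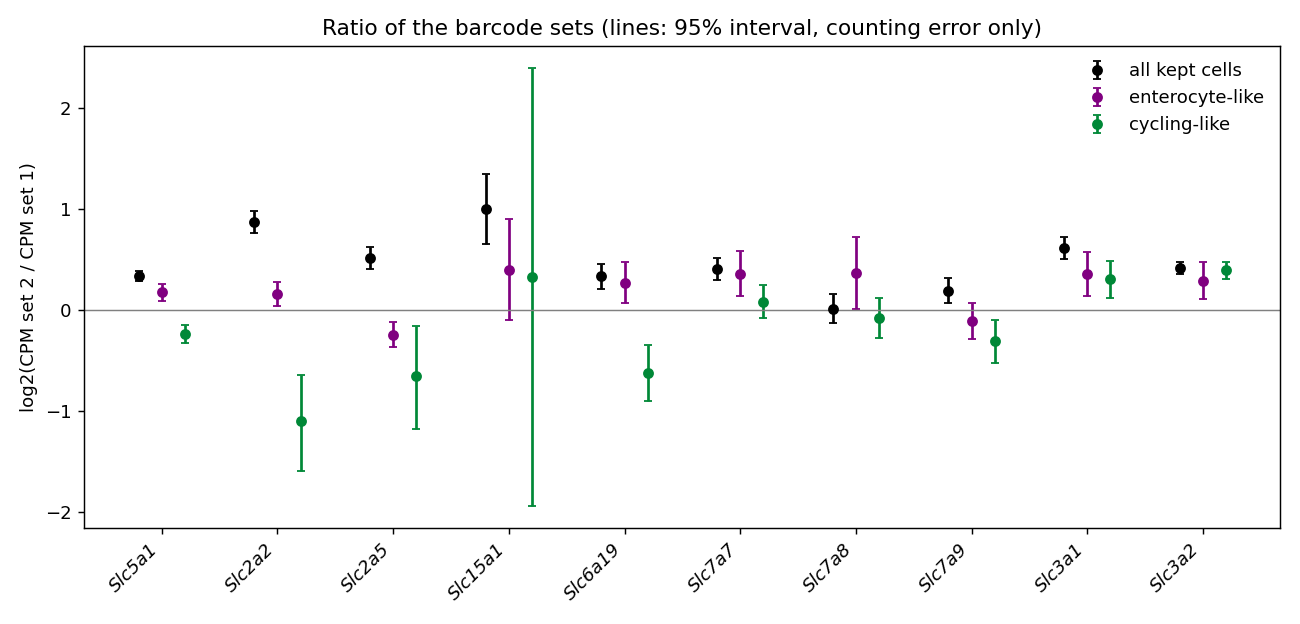
Log2 ratio of the level in set 2 over that in set 1 (y axis) for each transporter, over all kept cells, enterocyte-like cells and cycling-like cells, with lines for the 95% interval from counting error. Over all kept cells 10 of 10 points lie above 0, while in cycling-like cells 6 of 10 lie below it, with Slc2a2 and Slc6a19 the 2 called lower.

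Of the 5 named classes, revival-like cells held the highest level of the shared subunit Slc3a2, at 202 CPM (162 to 248) in set 1 and 149 (129 to 171) in set 2, against 98.3 (88.6 to 109) and 120.4 (112 to 129) in enterocyte-like cells, with intervals apart in set 1 and overlapping in set 2. In set 2 the cells that passed more than 1 cut stood higher than these, at 198 CPM (174 to 223). The Neurog3-positive cells of set 2, only 11, stood at 161 (93.6 to 257) and Tph1-positive cells at 144 (128 to 160). Both intervals overlapped that of revival-like cells. The 19 and 30 revival-like cells are few, and 3 of them held 53.9% and 36.5% of these UMIs. The other 9 transporters each lay lower in revival-like than in enterocyte-like cells in both sets. The interval of Slc15a1 in set 1 (1 UMI, 2.27 CPM, 0.0574 to 12.6) overlapped that of enterocyte-like cells. Slc5a1 stood at 20.4 (9.33 to 38.7) and 9.82 (5.23 to 16.8) CPM.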

How the data were processed

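Single-cell 3′ RNA libraries of mouse intestinal organoids were deposited as whole-number UMI counts per gene and barcode. Per the submitters' processing notes, bcl2fastq 2.20.0, STAR 2.7.3a and Cell Ranger 3.1.0 were used; the roles and genome build are not given in the sources used here. Both samples' files were identical, so the deposited counts (194068573 UMIs) were read once and divided by barcode suffix.

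Cells (2300 and 1766) had 500 or more genes, 1000 or more UMIs and a mitochondrial share up to 20%. Marker UMIs per 10000 gave the classes: enterocyte-like at 100, enteroendocrine-like at 25, goblet- or Paneth-like at 60, revival-like at 10 and, of the rest, cycling-like at 10. No doublet caller was run. Counts summed per class were scaled to CPM with exact Poisson 95% intervals, and ratios use CPM plus 1 unless given as folds, which use no pseudocount. Genes with at least 10 UMIs in a comparison were tested. For shares of cells, each cell was thinned to 2000 UMIs, leaving out 265 and 77 shallower cells. All 10 members are named; of each list at most the 2 highest and 2 lowest genes with at least 10 CPM are. Members, lists and rules were chosen with earlier results of these data known. Some genes are not reported here. The call rule was tried on simulated counts that held counting error only, without differences between cells. Changes in genes at low levels were not part of that trial. Python 3.11.15, numpy 2.4.6, scipy 1.17.1, pandas 2.3.3 and matplotlib 3.10.9 were used.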

Additional observations from a re-analysis of the deposited data

Results flagged for a closer look

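Barcodes with over 50% mitochondrial UMIs entered no comparison, yet they held UMIs of all 10 transporters above what a count of 0 allows. There were 3643 such barcodes in set 1 and 1785 in set 2, and levels are CPM of non-mitochondrial UMIs. Slc5a1 stood at 229 in set 1 and 350.2 in set 2, Slc2a2 at 26.9 and 50.2, and Slc2a5 at 32.3 and 40.4. Slc15a1 stood at 3.45 and 4.64, and Slc6a19 at 49.7 and 54.8. Among the amino acid carrier subunits, Slc7a7 stood at 25.4 and 29.5, Slc7a8 at 17.4 and 28.6, Slc7a9 at 24.1 and 29.7, Slc3a1 at 43.5 and 60.8, and Slc3a2 at 91.7 and 94.4. On the same scale the kept cells held 102 and 129 of Slc5a1, 19.5 and 24.6 of Slc6a19 and 21.3 and 32.6 of Slc3a1, lower than in those barcodes in both sets. They held 23.8 and 31.6 of Slc7a7 and 72.9 and 97.5 of Slc3a2, which was lower in set 1 and higher in set 2. Among enterocyte markers, Apoa1 stood at 198 and 581 in the barcodes over 50% mitochondrial against 73.9 and 215 in kept cells and Alpi at 32.0 and 46.9 against 13.7 and 22.3, while Fabp1 stood at 971 and 1047 against 1643 and 2877. Their part in the transporter levels was not tested.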

How the results depend on the processing

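All 10 transporters stayed above the other cells in enterocyte-like cells under every alternative run, and 9 to 10 were called in each set; the call lost was that of Slc3a2. Their median log2 ratio was 1.78 in set 1 and 1.96 in set 2 with a pseudocount of 10 CPM, and 2.38 and 2.69 with CPM taken per cell and then averaged. It was 2.55 in set 1 without the 3 cells richest in each gene, 2.35 in set 1 with the cut at 0.5 times its value, and 2.87 in set 2 without the 5% of cells with most UMIs. The ratio of set 2 over set 1 in all kept cells was less stable. Its median was 0.30 with a pseudocount of 10 CPM and 0.30 with CPM averaged over cells. With at most 10% mitochondrial UMIs it was -0.067 with 0 genes called. This limit left out most enterocyte-like cells, which had median mitochondrial shares of 13.4% and 14.0%. The log2 ratios that changed sign under it were Slc5a1 -0.19, Slc2a2 -0.16, Slc2a5 -0.064, Slc6a19 -0.071, Slc7a8 -0.25 and Slc7a9 -0.29. Scaled without mitochondrial and ribosomal genes, Slc7a8 was -0.060. With classes weighted alike, chosen after seeing the data, the median was 0.015, and Slc5a1 was -0.019, Slc2a5 -0.28, Slc6a19 -0.10, Slc7a8 -0.022 and Slc7a9 -0.19. Other settings gave 2 to 4 calls. In peptide-hormone cells with few enterocyte markers, chosen after seeing the data, the higher call of Slc6a19 over enterocyte-like cells was lost in both sets. The cause of these changes was not tested. No paired analysis was possible because each set is a single pool and the files of both samples are the same. Slc15a1 had the fewest UMIs of the 10 transporters in all kept cells, 113 and 188.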
